A study of Mus musculus with 14 samples.

Results

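The collagen chains of the mouse were followed in epithelium peeled from the embryonic bladder and urethra. A chain was any gene whose symbol reads Col, a number, the letter a and another number, which gave 43 genes of the 55228 counted in each library. Col17a1, the collagen of the hemidesmosome, was left out. By protein structure, 11 chains were fibrillar, 6 belonged to the beaded filaments of collagen VI, 9 were fibril-associated and 9 belonged to basement membranes. The remaining chains were 3 of short-chain networks, 3 transmembrane chains and 2 others. Bulk poly(A) RNA was sequenced from wild-type, untreated female embryos of the outbred CD-1 stock. There were 3 libraries of bladder epithelium and 3 of urethral epithelium at embryonic day E18.5, and 4 of bladder epithelium and 4 of urethral epithelium at E14.5. Each library pooled the female embryos of 1 litter, and every litter gave both organs; the labels do not say which bladder and urethra libraries share a litter, so tissues were compared unpaired. Trypsin loosened the layers and fine forceps parted them, so the purity of a library depends on that separation. The description of the design gives 4 litters at E14.5, whereas the extraction notes give 3 litters for each kind of sample. The stages were deposited in separate count tables, so stage and any batch that goes with it cannot be told apart.

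Collagens are triple helices of 3 chains that are secreted and assembled outside the cell. Fibrillar chains pack into the tensile fibrils of connective tissue and are made mainly by fibroblasts, smooth muscle cells and, for collagen II, chondrocytes. Collagen IV chains form sheets under epithelia and around vessels, muscle and nerve: Col4a1 joins Col4a2 in nearly all basement membranes, Col4a5 joins Col4a6 under some epithelia and around smooth muscle, and Col4a3 with Col4a4 join Col4a5 in the kidney glomerulus. Collagen VII, made largely by epithelial cells, forms the anchoring fibrils that tie an epithelial basement membrane to the stroma below.

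The libraries held 21.1 to 36.81 M counts each. Collagen chains took 2.241 to 3.309% of all counts in E18.5 bladder, 0.743 to 0.9291% in E18.5 urethra, 0.201 to 0.5819% in E14.5 bladder and 0.4142 to 0.9597% in E14.5 urethra. All levels below are in CPM, the usual library-scaled count, unless said otherwise. Of the 43 chains, 39 had a count in each of the 14 libraries, and Col10a1, the collagen of hypertrophic cartilage, had 6 counts in 1 library of E18.5 urethra. The epithelial label was checked on 7 pan-epithelial genes, which summed to 2564 to 3408 CPM in E18.5 bladder, 3597 to 4220 CPM in E18.5 urethra, 3941 to 4696 CPM in E14.5 bladder and 1657 to 3656 CPM in E14.5 urethra. A list of 15 mesenchymal markers without collagens summed to 3788 to 6142 CPM in E18.5 bladder, 1448 to 1736 CPM in E18.5 urethra, 580 to 1547 CPM in E14.5 bladder and 1842 to 2861 CPM in E14.5 urethra. RNA of stromal markers was present in every library. In such bulk samples, fewer cells of a type and less RNA per cell cannot be told apart. E14.5 urethra replicate 1 stood apart from the other 3 of its group, with the highest epithelial sum, 3656 CPM, and the lowest mesenchymal sum, 1842 CPM. E18.5 urethra replicate 3 held 35 counts over 4 Y-linked genes, against 0 to 2 in the other 13 libraries, although the label is female. Without it, 22 chains were higher and 9 lower in E18.5 bladder than in E18.5 urethra: Col12a1 and Col28a1 were then called higher, and Col27a1 and Col4a3 lost their calls. Also without it, 9 chains were higher and 3 lower at E18.5 than at E14.5 in urethra, and the interaction of tissue with stage was called higher for 19 and lower for 2.

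**Figure D1:**
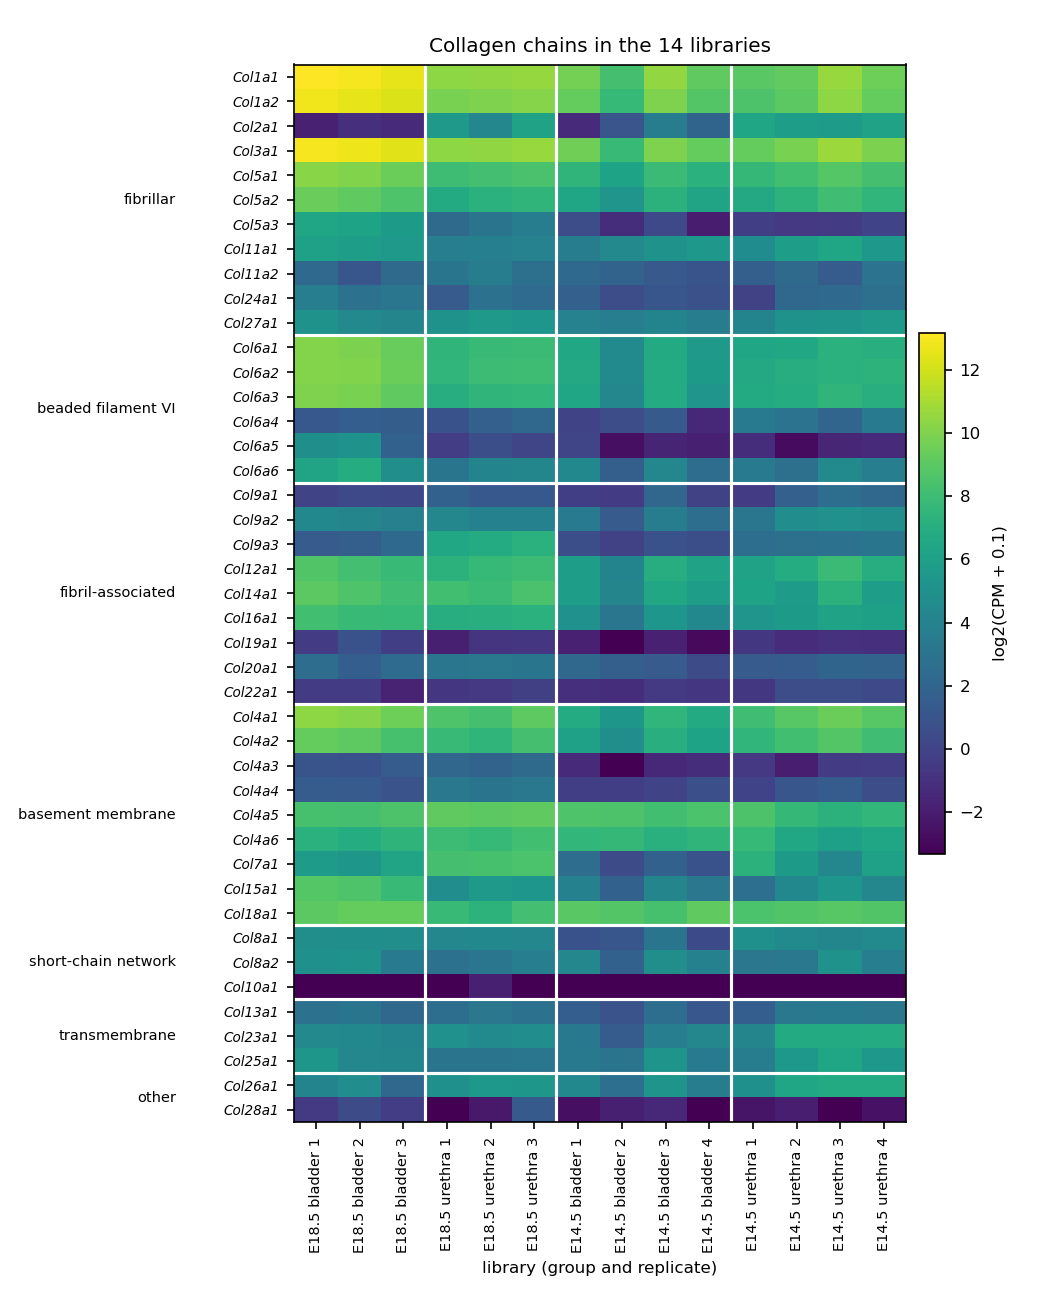
Level of each of the 43 chains in each of the 14 libraries, as log2 of CPM plus 0.1, with chains in rows by class and libraries in columns by group. Most fibrillar and collagen VI chains were brightest in the 3 E18.5 bladder libraries, whereas Col2a1, Col7a1 and Col9a3 were brighter in urethra.

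Calls rest on edgeR's quasi-likelihood F test at an adjusted p under 0.05, with the adjustment over all genes tested, and differences are given as log2 fold changes ± standard error. At E18.5, 20 of 42 chains tested were higher and 11 were lower in bladder than in urethra; among all genes, 37.9% were called, 19.3% higher and 18.6% lower. At E14.5, 0 of the 38 chains tested were higher and 12 were lower in bladder (1 was higher at an unadjusted p under 0.05, and 0 by DESeq2), beside 44% of all genes called, 23.1% higher and 20.9% lower. The median log2 fold change of the chains was 0.73 at E18.5 and -1.05 at E14.5, with medians over all genes of -0.03 and -0.03. Between stages, 26 of 42 chains were higher and 1 was lower at E18.5 than at E14.5 in bladder, beside 40.3% of all genes called, 19.9% higher and 20.4% lower. In urethra, 10 of 42 were higher and 4 were lower at E18.5, beside 33% of all genes called, 17.3% higher and 15.7% lower. The tissue difference itself changed with stage for 24 of 42 chains, beside 22.9% of all genes, and was more positive at E18.5 for 21 of them, beside 12.2% of all genes. Groups did not overlap for 32 of 42 chains between tissues at E18.5, beside 51.2% of all genes, and for 7 of 38 at E14.5, beside 40.1%. Between stages they did not overlap for 28 of 42 in bladder, beside 46.4% of all genes, and for 16 of 42 in urethra, beside 38.2%. These counts of calls depended on the scaling of the libraries. Scaled on the 7 pan-epithelial genes, 24 chains were higher and 4 lower in bladder at E18.5, and 0 higher and 32 lower at E14.5. Scaled on the 15 mesenchymal markers, 8 were higher and 22 lower at E18.5, and 5 higher and 4 lower at E14.5. With all 14 libraries in 1 fit, 15 were higher and 4 lower at E18.5. With a mesenchyme score as a covariate, 0 chains were called between tissues at E18.5, and 2 of all genes. Sums of these markers did not overlap between tissues at E18.5, so that fit could hardly tell the score from tissue. Between stages in bladder, 33 were higher and 1 lower at E18.5 by the epithelial scaling, and 8 higher and 19 lower by the mesenchymal one. In urethra these counts were 7 higher and 8 lower by the epithelial scaling, and 11 higher and 1 lower by the mesenchymal one. The E14.5 counts depended on single libraries: 20 chains were lower in bladder without urethra replicate 1 and 20 without bladder replicate 3, and 2 were higher without urethra replicate 1. At E18.5, 7 rather than 11 chains were lower without urethra replicate 1. In the urethral stage comparison, 2 rather than 4 chains were lower without E18.5 replicate 2.

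**Figure D2:**
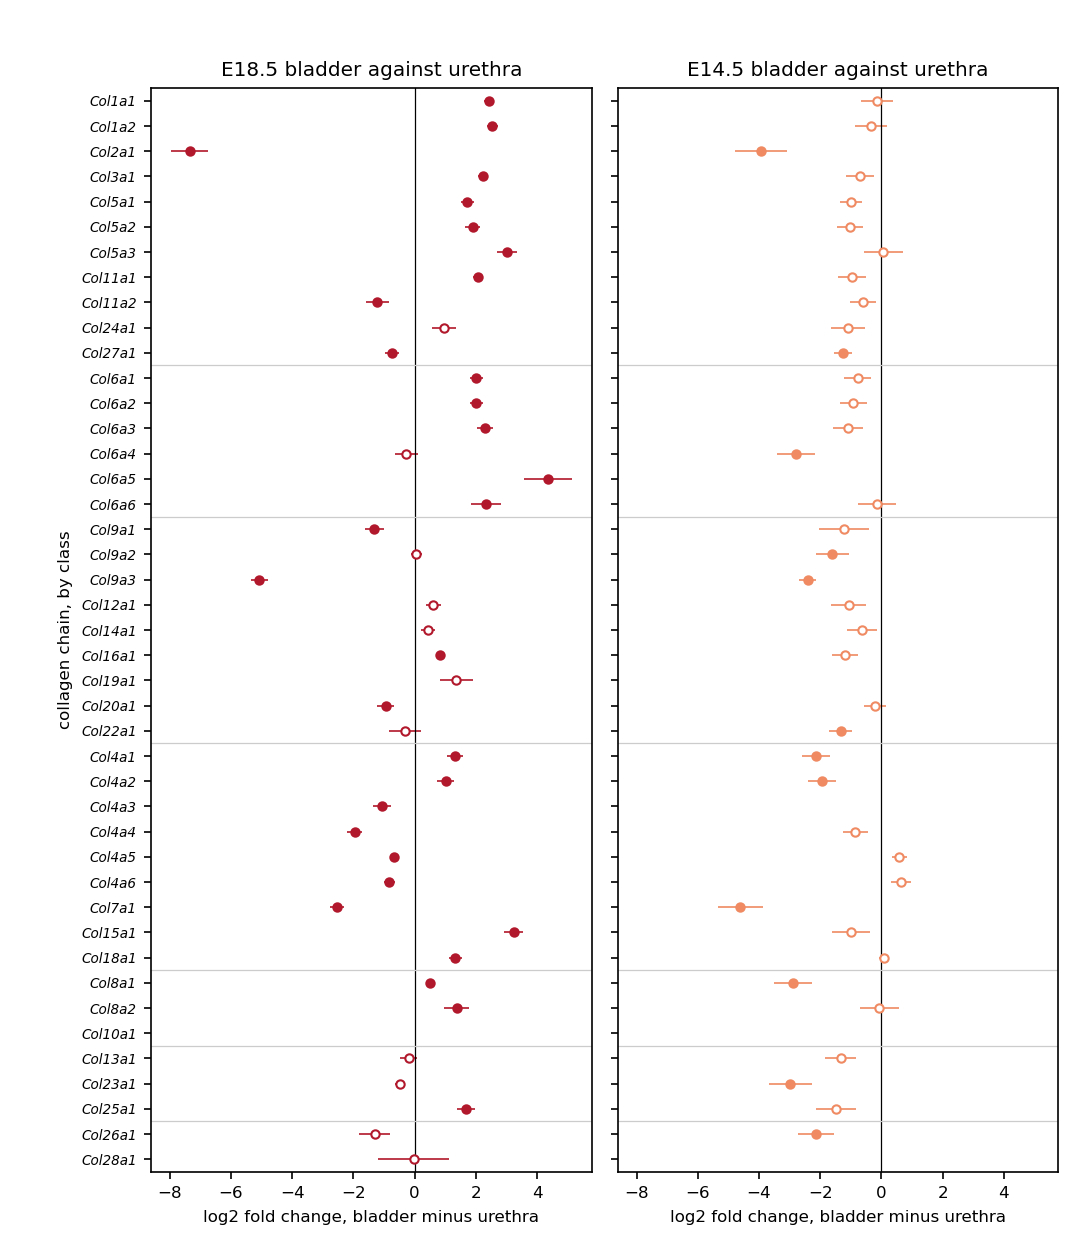
Log2 fold change of each chain tested, bladder minus urethra, at E18.5 and at E14.5, with bars of 1 standard error and filled points for an edgeR adjusted p under 0.05; a row without a point was not tested. At E18.5 the chains spread from -7.35 for Col2a1 to 4.36 for Col6a5, whereas every called chain at E14.5 lay below 0.

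Fibrillar chains took the largest mean share of collagen counts in each group, 76.2 ± 0.908% in E18.5 bladder, 55.2 ± 1.33% in E18.5 urethra, 55.4 ± 10.4% in E14.5 bladder and 53.8 ± 6.43% in E14.5 urethra (SD, n = 3, 3, 4 and 4). In 1 library of E14.5 bladder, basement membrane chains took more, 50.3%. Per kilobase of exon, Col1a1, Col3a1 and Col1a2 led E18.5 bladder with 1171 ± 242, 700.5 ± 119.5 and 485 ± 85.6 CPM per kb (SD, n = 3). The same 3 chains led E18.5 urethra by mean, with 215 ± 16.5, 146 ± 14.9 and 82.1 ± 9.05 CPM per kb (SD, n = 3); Col4a5, next in order at 81.2 ± 4.35 CPM per kb, overlapped Col1a2 and exceeded it in replicate 1. At E14.5 Col1a1 and Col3a1 still ranked highest, at 120.3 ± 74.1 and 67.2 ± 33.9 CPM per kb in bladder and 130.2 ± 75.7 and 106 ± 45.3 CPM per kb in urethra (SD, n = 4 each), and within their SDs they overlapped the chains next in order, Col18a1 in bladder at 65.3 ± 15.3 and Col4a1 in urethra at 64.8 ± 24.1 CPM per kb. Of all collagen counts, Col1a1, Col1a2 and Col3a1 together took 70.4 ± 1.28% in E18.5 bladder, 48.1 ± 1.4% in E18.5 urethra, 47.8 ± 10.2% in E14.5 bladder and 42.5 ± 6.79% in E14.5 urethra (SD, n = 3, 3, 4 and 4).

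Col1a1 (chr11:94936224-94953042, GRCm38), a chain of collagen I, had 9241, 7741 and 6067 CPM in E18.5 bladder and 1307, 1403 and 1523 CPM in E18.5 urethra. At E14.5 it had 846, 314, 1442 and 556 CPM in bladder and 491, 598, 1583 and 746 CPM in urethra. The 3 E18.5 bladder libraries lay above all others, and the other groups overlapped. The log2 fold change between tissues was 2.43 ± 0.17 (adjusted p = 3.66e-05) at E18.5 and -0.14 ± 0.52 (adjusted p = 0.839) at E14.5. Between stages it was 3.31 ± 0.48 (adjusted p = 1.92e-04) in bladder and 0.71 ± 0.46 (adjusted p = 0.255) in urethra; the urethral difference was called, at an adjusted p of 0.048, without E14.5 urethra replicate 3. Col1a2, its partner chain, and Col3a1, the chain of collagen III, behaved likewise, with log2 differences between tissues at E18.5 of 2.54 ± 0.17 (adjusted p = 2.87e-05) and 2.24 ± 0.16 (adjusted p = 3.79e-05). In bladder, the stage differences of Col1a2 and Col3a1 were 3.43 ± 0.49 (adjusted p = 1.58e-04) and 3.41 ± 0.42 (adjusted p = 6.77e-05), and in urethra 0.51 ± 0.46 (adjusted p = 0.428) and 0.45 ± 0.40 (adjusted p = 0.424). Col5a1, a chain that seeds collagen I fibrils, had 1237, 1077 and 699.8 CPM in E18.5 bladder and 261, 299 and 346 CPM in E18.5 urethra, a log2 difference of 1.71 ± 0.21 (adjusted p = 5.14e-04). At E14.5 Col5a1 had 178, 76.9, 244 and 149 CPM in bladder and 204, 291, 454 and 319.5 CPM in urethra. That E14.5 difference, -1.0 ± 0.36 (adjusted p = 0.0516), passed the threshold without bladder replicate 3, at 0.0203, and without urethra replicate 1, at 0.028.

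Col5a3, a less common chain of collagen V, showed the largest stage difference of the 42 chains tested in bladder. It had 84.2, 77.0 and 51.1 CPM in E18.5 bladder and 5.19, 8.03 and 12.5 CPM in E18.5 urethra, against 1.41, 0.346, 1.17 and 0.138 CPM in E14.5 bladder and 0.747, 0.574, 0.643 and 0.903 CPM in E14.5 urethra. No E18.5 library overlapped an E14.5 library of its tissue. The stage difference was 6.58 ± 0.56 (adjusted p = 6.36e-06) on the log2 scale in bladder and 3.56 ± 0.53 (adjusted p = 5.33e-04) in urethra, and the tissue difference at E18.5 was 3.01 ± 0.32 (adjusted p = 2.42e-04). Col11a1, which is best known from cartilage but is also made in other embryonic mesenchyme, was the fibrillar chain that moved in opposite directions. It had 69.1, 60.8 and 49.4 CPM in E18.5 bladder against 12.7, 21.8, 35.5 and 44.5 CPM in E14.5 bladder, and 13.1, 13.6 and 15.8 CPM in E18.5 urethra against 25.8, 60.3, 84.5 and 44.7 CPM in E14.5 urethra. The log2 stage difference was 1.10 ± 0.39 (adjusted p = 0.0399) in bladder and -1.94 ± 0.42 (adjusted p = 0.00445) in urethra, and the test of the difference between these gave 3.04 ± 0.58 (adjusted p = 0.00372). The bladder call was lost without any 1 of 5 libraries, E14.5 bladder replicates 1 and 2 and E18.5 bladder replicates 1, 2 and 3, with adjusted p of 0.0531 to 0.129. Col5a2 and Col24a1 rose with stage in bladder, by 2.63 ± 0.41 (adjusted p = 3.19e-04) and 2.26 ± 0.55 (adjusted p = 0.00533), and Col5a2 was higher in E18.5 bladder than in E18.5 urethra, by 1.9 ± 0.23 (adjusted p = 5.00e-04). Col27a1 and Col11a2 were lower in bladder at E18.5, at -0.74 ± 0.23 (adjusted p = 0.0365) and -1.22 ± 0.39 (adjusted p = 0.0381). The Col27a1 call was lost without E18.5 bladder replicate 2 or 3 or urethra replicate 2 or 3, and the Col11a2 call without bladder replicate 1 or 2 or urethra replicate 1 or 2. Col27a1 was also lower in bladder at E14.5, at -1.25 ± 0.29 (adjusted p = 0.00882). In bladder it was higher at E18.5, at 0.78 ± 0.29 (adjusted p = 0.0491), a call lost without E14.5 replicate 1, 2 or 4 or E18.5 replicate 1 or 2.

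Markers of stromal cells were higher in E18.5 bladder along with these chains. Between stages in urethra, the 15 mesenchymal markers averaged 1603 ± 145 summed CPM at E18.5 and 2269 ± 430.2 at E14.5, with 1 called higher and 5 lower. Of all genes, 17.3% were called higher and 15.7% lower in that comparison. The 11 fibrillar chains averaged 4437 ± 459 summed CPM at E18.5 and 3273 ± 1554 at E14.5 in urethra (SD, n = 3 and 4). These sums overlapped, at 4055 to 4946 CPM and 1943 to 5508 CPM. Of the 11 chains, 1 was called higher, Col5a3, 1 lower, Col11a1, and 9 were not called. Scaled on the pan-epithelial genes, the urethral stage differences of Col1a1, Col1a2 and Col3a1 turned to -0.193, -0.401 and -0.425. In the same comparison edgeR called 6 of 10 smooth muscle, 0 of 10 endothelial and 2 of 10 leukocyte markers higher and 0 of these lists lower; at an unadjusted p under 0.05, 0 endothelial markers were higher and 0 of the 3 lists were lower. Smooth muscle markers, 10 genes, summed to 5029 to 12762 CPM in E18.5 bladder, 1040 to 2353 CPM in E18.5 urethra, 267 to 609 CPM in E14.5 bladder and 476 to 681 CPM in E14.5 urethra. Endothelial markers, 10 genes, summed to 315 to 455 CPM in E18.5 bladder, 67.5 to 112 CPM in E18.5 urethra, 33.3 to 136 CPM in E14.5 bladder and 30.7 to 238 CPM in E14.5 urethra. Leukocyte markers, 10 genes, summed to 289 to 381 CPM in E18.5 bladder, 76.7 to 89.5 CPM in E18.5 urethra, 15.7 to 57.5 CPM in E14.5 bladder and 32.2 to 85.4 CPM in E14.5 urethra. None of these 3 lists had a gene at 0 in a whole group, and their part in the collagen differences was not tested. At E18.5, 12 of 15 mesenchymal, 10 of 10 smooth muscle, 10 of 10 endothelial and 9 of 10 leukocyte markers were higher in bladder, with 0 lower by edgeR and 0 lower at an unadjusted p under 0.05. Of all genes, 19.3% were called higher and 18.6% lower in that comparison. At E14.5, 9 of 15 mesenchymal markers were lower in bladder, beside 20.9% of all genes. Glial and neuronal markers, 10 genes, summed to 178 to 264 CPM in E18.5 bladder, 289.6 to 430 CPM in E18.5 urethra, 379 to 424 CPM in E14.5 bladder and 265 to 402 CPM in E14.5 urethra. Mesothelial markers were 5 genes that include Krt19 and the uroplakin Upk3b of the epithelium. They summed to 2329 to 2887 CPM in E18.5 bladder, 1964 to 2749 CPM in E18.5 urethra, 2414 to 2621 CPM in E14.5 bladder and 511 to 1468 CPM in E14.5 urethra. Krt19 alone averaged 1920, 2013, 1796 and 717 CPM in these groups, and Upk3b 583, 95.5, 467 and 42.5 CPM. Wt1 averaged 15.7, 3.72, 11.6 and 26.6 CPM and Lrrn4 18.4, 2.64, 3.30 and 5.20 CPM. The sum is therefore not a measure of mesothelium. The summed CPM of the 11 fibrillar chains over that of the 15 mesenchymal markers was 4.42 ± 0.265 in E18.5 bladder, 2.77 ± 0.103 in E18.5 urethra, 2.22 ± 0.453 in E14.5 bladder and 1.39 ± 0.376 in E14.5 urethra (SD, n = 3, 3, 4 and 4). This ratio, which was looked at after the levels were known, did not overlap between tissues at E18.5 and did so at E14.5. When libraries were scaled on the 15 mesenchymal markers, which set the median of all genes to -1.54 between tissues at E18.5, Col1a1 had a log2 difference of 0.86 (adjusted p = 0.00413) and Col5a1 one of 0.13 (adjusted p = 0.689), and Col6a1 one of 0.45 (adjusted p = 0.174). Under that scaling, with a median gene of -2.72, the bladder stage differences of Col1a1 and Col3a1 were 0.92 (adjusted p = 0.0764) and 0.98 (adjusted p = 0.0595). At E14.5, where the median gene then stood at 1.58, Col1a1 and Col3a1 turned to 1.28 (adjusted p = 0.0848) and 0.75 (adjusted p = 0.316) between tissues.

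**Figure D3:**
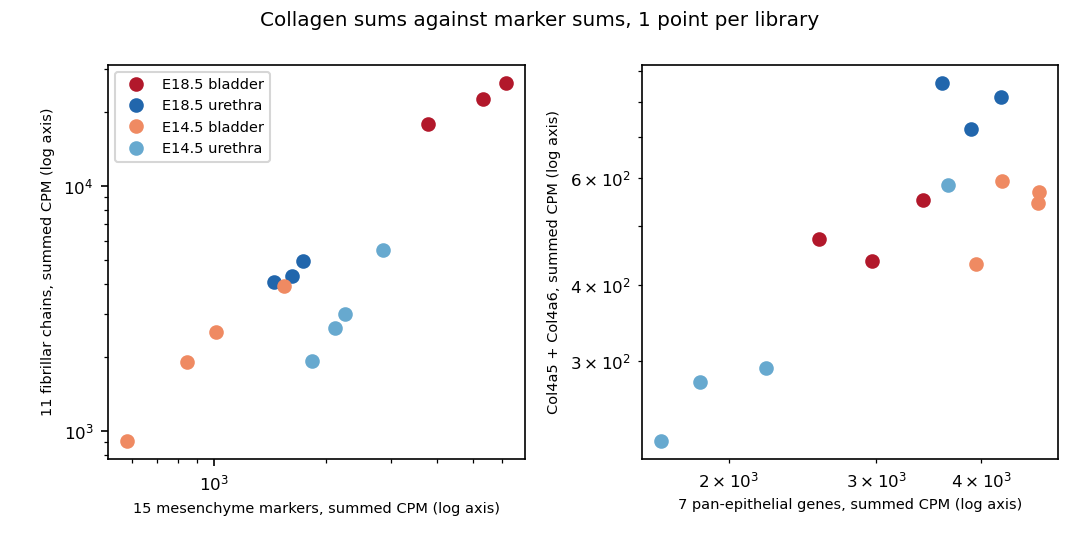
Summed CPM of the 11 fibrillar chains against the 15 mesenchymal markers, and of Col4a5 plus Col4a6 against the 7 pan-epithelial genes, with 1 point per library and log axes. E18.5 bladder libraries reached 17892 to 26414 CPM of fibrillar chains, above every other library.

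Col2a1, the main chain of cartilage collagen and also found in the notochord and in some embryonic epithelia, was almost confined to urethra. It had 0.184, 0.375 and 0.295 CPM in E18.5 bladder and 48.8, 19.7 and 72.8 CPM in E18.5 urethra. At E14.5 it had 0.314, 1.93, 12.7 and 3.88 CPM in bladder and 86.9, 61.5, 56.1 and 74.2 CPM in urethra. The tissues did not overlap at either stage, with log2 differences of -7.35 ± 0.60 (adjusted p = 7.29e-05) at E18.5 and -3.94 ± 0.85 (adjusted p = 0.00681) at E14.5; without E14.5 bladder replicate 3, the E14.5 value was -5.16. The stage difference in bladder, -3.95 ± 1.09 (adjusted p = 0.0114), the only fall among chains there, was -2.74 without that library, and in urethra it was -0.58 ± 0.71 (adjusted p = 0.565). Direction between tissues held under each scaling tried. Among cartilage markers, Snorc was at 0 in all 14 libraries, and Acan, Matn1, Matn3, Cnmd and Ucma with it summed to 0 to 0.491 CPM in E18.5 bladder, 0.346 to 2.22 CPM in E18.5 urethra, 0 to 1.17 CPM in E14.5 bladder and 1.04 to 1.3 CPM in E14.5 urethra. Hapln1, the only gene of the 7 on the cartilage list above that level, differed by 1.01 ± 0.51 (adjusted p = 0.15) between tissues at E18.5 and 1.41 ± 0.52 (adjusted p = 0.054) at E14.5, with 12.2, 8.43 and 2.85 CPM in E18.5 bladder, 5.71, 3.26 and 2.56 CPM in E18.5 urethra, 14.6, 59.1, 70.4 and 64.8 CPM in E14.5 bladder and 11.9, 20.6, 32.7 and 11.2 CPM in E14.5 urethra.

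Col9a3 followed the same tissue pattern. It codes for a chain of collagen IX, which decorates collagen II fibrils in cartilage. At E18.5 it had 2.62, 3.07 and 4.81 CPM in bladder and 89.1, 112 and 147 CPM in urethra, and at E14.5 1.44, 0.835, 1.72 and 1.48 CPM in bladder and 6.15, 6.56, 7.15 and 8.4 CPM in urethra. The 3 E18.5 urethra libraries stood far above all others. The log2 tissue difference was -5.08 ± 0.28 (adjusted p = 1.33e-05) at E18.5 and -2.41 ± 0.27 (adjusted p = 5.34e-04) at E14.5, and the difference between these was -2.62 ± 0.36 (adjusted p = 7.69e-04). Between stages Col9a3 rose in both organs, by 1.40 ± 0.27 (adjusted p = 0.00118) in bladder and 4.02 ± 0.25 (adjusted p = 4.18e-06) in urethra. It shares 234 exon bases with Tcfl5 on the opposite strand, whose 273 counts over all libraries compare with 12133 for Col9a3. Of its partner chains, Col9a1 had 0.966, 1.12 and 1.08 CPM in E18.5 bladder and 3.33, 2.28 and 2.22 CPM in E18.5 urethra, and Col9a2 had 20.4, 17.9 and 14.3 CPM in E18.5 bladder and 20.1, 15.2 and 14.8 CPM in E18.5 urethra. The Col9a1 difference, -1.32 ± 0.32 (adjusted p = 0.0122), lost its call without E18.5 urethra replicate 1, and that of Col9a2 was 0.06 ± 0.19 (adjusted p = 0.84). At E14.5 Col9a2 was lower in bladder, at -1.60 ± 0.55 (adjusted p = 0.0439), and lost that call without bladder replicate 1, 2 or 4 or urethra replicate 2, 3 or 4.

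**Figure D4:**
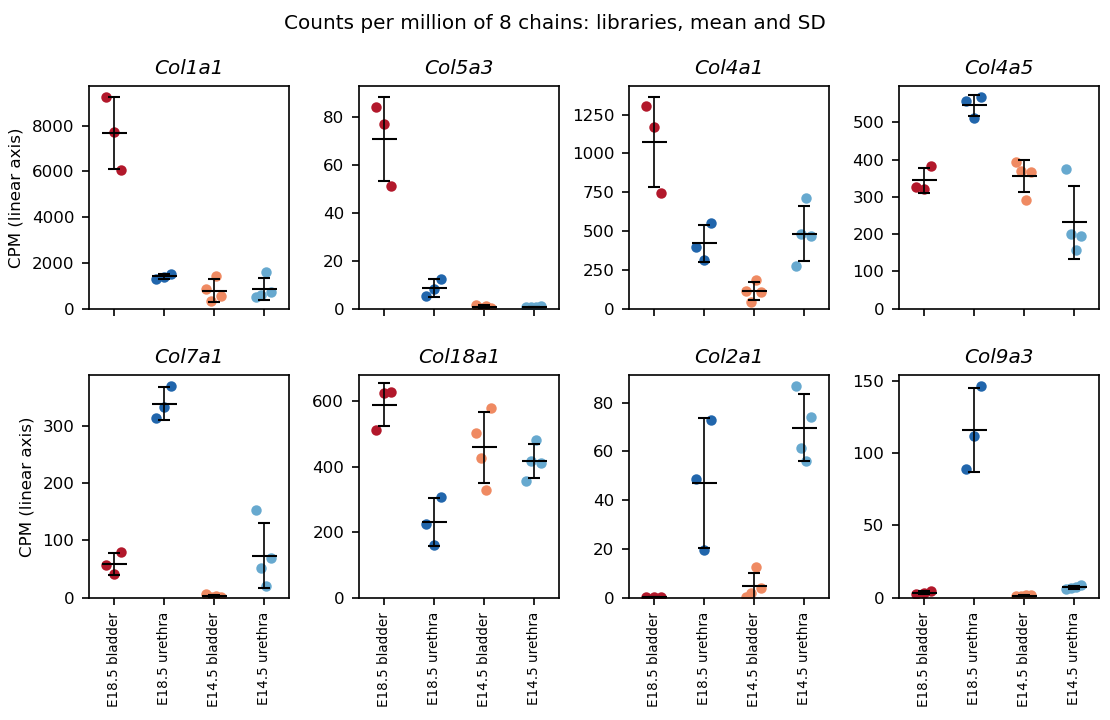
CPM of 8 chains in each library by group on linear axes that start at 0, with the mean as a bar and 1 SD. Col1a1, Col5a3 and Col4a1 were highest in E18.5 bladder, Col4a5, Col7a1 and Col9a3 in E18.5 urethra, Col18a1 was lowest in E18.5 urethra, and Col2a1 was near 0 in E18.5 bladder.

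Collagen VI chains build the beaded filaments that surround cells in connective tissue. Col6a1, Col6a2 and Col6a3 moved as a group. Col6a1 had 1115, 974 and 647 CPM in E18.5 bladder and 181, 237 and 248 CPM in E18.5 urethra, against 96.5, 23.8, 108 and 49.1 CPM in E14.5 bladder and 85.8, 93.8, 146 and 136 CPM in E14.5 urethra. E18.5 bladder stood above all other libraries, and E18.5 urethra above E14.5 urethra, although this last difference, 0.93 ± 0.40 (adjusted p = 0.0944), was not called. Between tissues at E18.5 the log2 difference was 2.02 ± 0.22 (adjusted p = 2.44e-04) for Col6a1, 2.01 ± 0.21 (adjusted p = 2.19e-04) for Col6a2 and 2.31 ± 0.25 (adjusted p = 2.72e-04) for Col6a3. In bladder the stage difference was 3.75 ± 0.43 (adjusted p = 4.20e-05), 3.75 ± 0.43 (adjusted p = 4.18e-05) and 3.72 ± 0.49 (adjusted p = 9.60e-05) for these chains. Per kilobase, Col6a1 over Col6a2 was 1.8 in E18.5 bladder, 1.79 in E18.5 urethra, 1.83 in E14.5 bladder and 1.61 in E14.5 urethra. The size of this ratio depends on the annotated exon lengths, 4380 bases for Col6a1 and 8326 for Col6a2. Of the chains that replace Col6a3, Col6a5 and Col6a6 were higher in E18.5 bladder than in E18.5 urethra, by 4.36 ± 0.77 (adjusted p = 0.00283) and 2.32 ± 0.49 (adjusted p = 0.00672). Col6a5 was uneven within E18.5 bladder, with 29.5, 34.0 and 3.44 CPM, against 0.692, 1.45 and 1.01 CPM in E18.5 urethra. Its stage difference in bladder, 5.98 ± 0.88 (adjusted p = 2.10e-04), was 7.27 without E14.5 bladder replicate 1. Col6a4 was the exception, with 0.94, 1.41, 2.39 and 0.275 CPM in E14.5 bladder and 10.7, 7.54, 3.98 and 11.7 CPM in E14.5 urethra, a log2 difference of -2.79 ± 0.61 (adjusted p = 0.00712); at E18.5 the tissues overlapped.

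Fibril-associated chains Col12a1 and Col14a1 coat fibrils of dense connective tissue. Col14a1 had 510.2, 404 and 279 CPM in E18.5 bladder and 285, 239 and 349 CPM in E18.5 urethra, and 61.4, 17.9, 89.7 and 61.2 CPM in E14.5 bladder and 76.0, 55.5, 157 and 61.3 CPM in E14.5 urethra. Tissues overlapped at both stages and stages did not overlap in either tissue. The stage difference was 2.82 ± 0.47 (adjusted p = 4.65e-04) in bladder and 1.72 ± 0.46 (adjusted p = 0.0123) in urethra; between tissues at E18.5 it was 0.43 ± 0.23 (adjusted p = 0.169), which passed at 0.0325 without bladder replicate 3. Col12a1 rose with stage in bladder, by 2.27 ± 0.52 (adjusted p = 0.00381), and in urethra the difference was 0.56 ± 0.51 (adjusted p = 0.43). Its tissue difference at E18.5, 0.62 ± 0.23 (adjusted p = 0.0703), passed without bladder replicate 3, at 0.0254, and without urethra replicate 3, at 0.0457. Col16a1 was higher in E18.5 bladder than in E18.5 urethra, by 0.84 ± 0.15 (adjusted p = 0.00331), and rose with stage by 3.28 ± 0.39 (adjusted p = 5.13e-05) in bladder and 1.23 ± 0.37 (adjusted p = 0.0227) in urethra, the last call being lost without E14.5 urethra replicate 2 or E18.5 urethra replicate 2 or 3. Col20a1, a little-studied chain, was lower in E18.5 bladder, at -0.95 ± 0.29 (adjusted p = 0.0302), which was not called without bladder replicate 2 or urethra replicate 1 or 2, and rose in urethra by 1.46 ± 0.35 (adjusted p = 0.00752). The fit of Col20a1 is uncertain, since it shares 79 exon bases with 9230112E08Rik on the same strand, which had 2599 counts over all libraries beside 1782 for Col20a1. Col19a1 and Col22a1 stayed under 2 CPM in every library. Col19a1 was higher at E18.5 than at E14.5 in bladder, at 3.41 ± 0.71 (adjusted p = 0.00201), and Col22a1 was lower in bladder than in urethra at E14.5, at -1.33 ± 0.38 (adjusted p = 0.0222), which was not called without bladder replicate 1 or 2 or urethra replicate 2, 3 or 4.

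Among the 9 basement membrane chains, each passed the test between tissues at E18.5, with 4 higher and 5 lower in bladder and no overlap for any of the 9, beside 19.3% of all genes called higher, 18.6% called lower and 51.2% without overlap. The 2 collagen IV pairs were on opposite sides. With all 14 libraries in 1 fit, Col4a2, Col4a3, Col4a5 and Col4a6 lost these calls but kept their direction. Col4a1 and Col4a2 lie back to back on chromosome 8 (chr8:11198423-11312826, minus strand, and chr8:11312805-11449287, plus strand, GRCm38), with outermost starts 21 bases apart and 22 shared exon bases. Col4a5 and Col4a6 lie back to back on chromosome X (chrX:141475385-141689234, plus strand, and chrX:141165403-141474076, minus strand), with outermost starts 1309 bases apart. The promoter windows of both pairs, which run from 250 bases before to 50 after each RefSeq start (RefSeq, GRCm38.p6), are shown because the members of a pair moved together and the pairs moved apart. Each is written 5′ to 3′ on the strand of its gene, in lower case, with capitals for CCAAT or GGGCGG on either strand (ATTGG or CCGCCC when read on the gene's strand).
Col4a1, chr8:11312777-11313076, minus strand: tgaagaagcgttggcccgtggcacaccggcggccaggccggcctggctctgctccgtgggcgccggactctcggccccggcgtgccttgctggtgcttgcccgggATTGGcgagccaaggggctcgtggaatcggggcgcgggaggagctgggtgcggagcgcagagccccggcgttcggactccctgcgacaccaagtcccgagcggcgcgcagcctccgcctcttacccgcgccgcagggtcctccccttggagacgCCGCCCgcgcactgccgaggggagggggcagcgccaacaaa
Col4a2, chr8:11312555-11312854, plus strand: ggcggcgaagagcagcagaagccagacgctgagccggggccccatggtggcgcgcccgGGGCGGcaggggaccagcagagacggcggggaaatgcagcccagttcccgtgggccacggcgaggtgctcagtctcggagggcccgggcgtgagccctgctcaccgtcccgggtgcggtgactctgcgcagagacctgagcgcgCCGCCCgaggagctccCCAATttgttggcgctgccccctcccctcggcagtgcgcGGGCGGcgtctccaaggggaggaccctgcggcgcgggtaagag
Col4a5, chrX:141475169-141475468, plus strand: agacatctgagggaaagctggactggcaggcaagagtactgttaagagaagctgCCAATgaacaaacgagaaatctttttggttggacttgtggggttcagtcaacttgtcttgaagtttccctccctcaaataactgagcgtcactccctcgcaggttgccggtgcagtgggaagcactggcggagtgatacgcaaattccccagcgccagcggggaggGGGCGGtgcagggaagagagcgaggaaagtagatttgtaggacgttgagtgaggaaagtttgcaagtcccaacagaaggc
Col4a6, chrX:141474027-141474326, minus strand: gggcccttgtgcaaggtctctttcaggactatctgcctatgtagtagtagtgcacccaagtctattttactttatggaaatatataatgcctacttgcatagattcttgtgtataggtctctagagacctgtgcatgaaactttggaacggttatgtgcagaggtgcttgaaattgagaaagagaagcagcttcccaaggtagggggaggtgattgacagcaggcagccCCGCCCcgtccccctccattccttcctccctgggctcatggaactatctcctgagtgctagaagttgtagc

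The windows of Col4a1 and Col4a2 overlap by 78 bases, and those of Col4a5 and Col4a6 lie 842 bases apart. CCAAT was found in the windows of Col4a1, Col4a2 and Col4a5 and GGGCGG in all 4; TATAAA, also searched on both strands, was in none of them. Windows were at hand for 34 of the 43 chains, 37 windows in all, of which 12 held CCAAT, 23 held GGGCGG and 4 held TATAAA. Among 32851 RefSeq windows of that length, 37.41% held CCAAT, 35.66% held GGGCGG and 13.62% held TATAAA. No motif contains another, and a match is a description of letters, not of a site in use.

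Col4a1 had 1307, 1168 and 747 CPM in E18.5 bladder and 399, 316 and 550.4 CPM in E18.5 urethra. At E14.5 it had 114, 42.3, 185 and 110.3 CPM in bladder and 272, 484, 711 and 469.5 CPM in urethra. The order of the tissues was thus the reverse at the 2 stages, with no overlap at either: the log2 difference was 1.33 ± 0.26 (adjusted p = 0.00421) at E18.5 and -2.13 ± 0.45 (adjusted p = 0.0063) at E14.5, and the change between these was 3.5 ± 0.61 (adjusted p = 0.00248). In bladder Col4a1 rose with stage by 3.28 ± 0.44 (adjusted p = 1.04e-04), and in urethra the difference was -0.21 ± 0.42 (adjusted p = 0.729). Its partner Col4a2 had 611, 544 and 327 CPM in E18.5 bladder and 225, 181 and 319 CPM in E18.5 urethra, and 69.5, 28.2, 136 and 74.8 CPM in E14.5 bladder and 183, 285, 424 and 274 CPM in E14.5 urethra. The same order held, with 1.01 ± 0.27 (adjusted p = 0.0186) at E18.5 and -1.95 ± 0.46 (adjusted p = 0.00961) at E14.5; the E18.5 call was lost without bladder replicate 1, urethra replicate 1 or urethra replicate 2, at 0.051, 0.0654 and 0.0642. With libraries scaled on the mesenchymal markers, the E18.5 differences of Col4a1 and Col4a2 turned to -0.26 (adjusted p = 0.426) and -0.59 (adjusted p = 0.0756), and lay above the median gene at -1.54. Both chains are made by endothelial and smooth muscle cells as well as epithelia, and the sums of those markers, given above, were highest in the same E18.5 bladder libraries; their part was not tested. At E14.5, where Col4a1 and Col4a2 were lower in bladder, edgeR called 9 of 15 mesenchymal markers, 1 of 10 smooth muscle markers, Smtn, and 0 of 10 endothelial markers lower, the last 0 also at an unadjusted p under 0.05; the endothelial sums of the tissues overlapped.

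Col4a5 had 327, 322 and 384 CPM in E18.5 bladder and 557, 512 and 568 CPM in E18.5 urethra. At E14.5 it had 395, 371, 293 and 367 CPM in bladder and 376, 200.4, 157 and 194 CPM in urethra. Urethra was higher at E18.5 without overlap, and at E14.5 3 of the 4 urethra libraries lay below every bladder library while replicate 1 lay among them. The log2 difference was -0.68 ± 0.12 (adjusted p = 0.00247) at E18.5 and 0.58 ± 0.25 (adjusted p = 0.0896) at E14.5, and the E14.5 difference was called, at 0.000629, without urethra replicate 1. Col4a6 went the same way, with 149.9, 117 and 167 CPM in E18.5 bladder, 258, 208 and 292 CPM in E18.5 urethra, 198, 199, 140.3 and 179 CPM in E14.5 bladder and 208, 92.2, 64.8 and 82.5 CPM in E14.5 urethra. Its log2 difference was -0.82 ± 0.18 (adjusted p = 0.00714) at E18.5 and 0.64 ± 0.33 (adjusted p = 0.149) at E14.5, called at 0.000718 without urethra replicate 1. In urethra both rose with stage, by 1.22 ± 0.23 (adjusted p = 0.00178) and 1.16 ± 0.31 (adjusted p = 0.0129), whereas in bladder the differences were -0.01 ± 0.23 (adjusted p = 0.969) and -0.27 ± 0.32 (adjusted p = 0.526). The change of the tissue difference with stage was -1.24 ± 0.32 (adjusted p = 0.0169) for Col4a5 and -1.44 ± 0.45 (adjusted p = 0.0348) for Col4a6. The Col4a6 value missed the threshold, at 0.0575 to 0.0876, without any 1 of 10 libraries: E14.5 bladder replicates 1, 2 and 4, E14.5 urethra replicates 2, 3 and 4, E18.5 bladder replicates 1 and 2, and E18.5 urethra replicates 1 and 3. Per 100 CPM of the 7 pan-epithelial genes, Col4a5 had 11.6 ± 1 CPM in E18.5 bladder, 14 ± 1.51 CPM in E18.5 urethra, 8.12 ± 0.826 CPM in E14.5 bladder and 9.82 ± 0.689 CPM in E14.5 urethra (SD, n = 3, 3, 4 and 4). With libraries scaled on those genes, where the median gene stood at 0.36 at E18.5 and -0.99 at E14.5, Col4a5 differed between tissues by -0.31 (adjusted p = 0.204) at E18.5 and by -0.25 (adjusted p = 0.187) at E14.5, and Col4a6 by -0.45 (adjusted p = 0.114) and -0.14 (adjusted p = 0.515).

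As a share of the 6 collagen IV chains per kilobase, Col4a5 and Col4a6 together made up 20.1, 20.7 and 34.3% in E18.5 bladder and 56.5, 59.1 and 49.5% in E18.5 urethra. At E14.5 they made up 76.4, 88.9, 57.4 and 74.6% in bladder and 56.1, 27.7, 16.5 and 27.3% in urethra. Bladder thus held the smaller share at E18.5 and the larger at E14.5, with no overlap within either stage. This share does not depend on how libraries are scaled; it was looked at after the levels were known and is given without a test. For the mean ratio within pairs per kilobase, Col4a1 over Col4a2 was 1.94 in E18.5 bladder, 1.55 in E18.5 urethra, 1.32 in E14.5 bladder and 1.45 in E14.5 urethra, and Col4a5 over Col4a6 was 2.85 in E18.5 bladder, 2.58 in E18.5 urethra, 2.37 in E14.5 bladder and 2.58 in E14.5 urethra. Of 7 partner ratios compared between tissues, none passed an exact two-sided permutation test adjusted over the 7 at either stage. The smallest adjusted p was 0.175 at E18.5, where 3 against 3 libraries cannot give an unadjusted p under 0.1 and so could not pass, and 0.2 at E14.5, where 4 against 4 cannot go below 0.0286. At E18.5 the tissues did not overlap for 4 of the 7 ratios, Col1a1 over Col1a2, Col4a1 over Col4a2, Col4a3 over Col4a4 and Col5a1 over Col5a2, and at E14.5 they overlapped for each of the 7. The log2 ratio of Col4a1 over Col4a2 ran from 0.92 to 1.02 in E18.5 bladder and from 0.61 to 0.65 in E18.5 urethra. Col4a3 and Col4a4, the kidney pair, took at most 0.66% of the 6 chains. Even so, Col4a4 was lower in E18.5 bladder than in E18.5 urethra, with 2.71, 2.62 and 1.77 CPM against 9.73, 8.21 and 9.48 CPM, a log2 difference of -1.96 ± 0.24 (adjusted p = 5.14e-04), and rose with stage by 1.30 ± 0.36 (adjusted p = 0.011) in bladder and 2.38 ± 0.35 (adjusted p = 5.11e-04) in urethra. Col4a3 was lower in E18.5 bladder at -1.08 ± 0.29 (adjusted p = 0.02), which was not called without bladder replicate 1 or 2 or urethra replicate 1 or 3. It shares 563 exon bases with C430014B12Rik on the opposite strand, whose 80 counts compare with 617 for Col4a3.

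**Figure D5:**
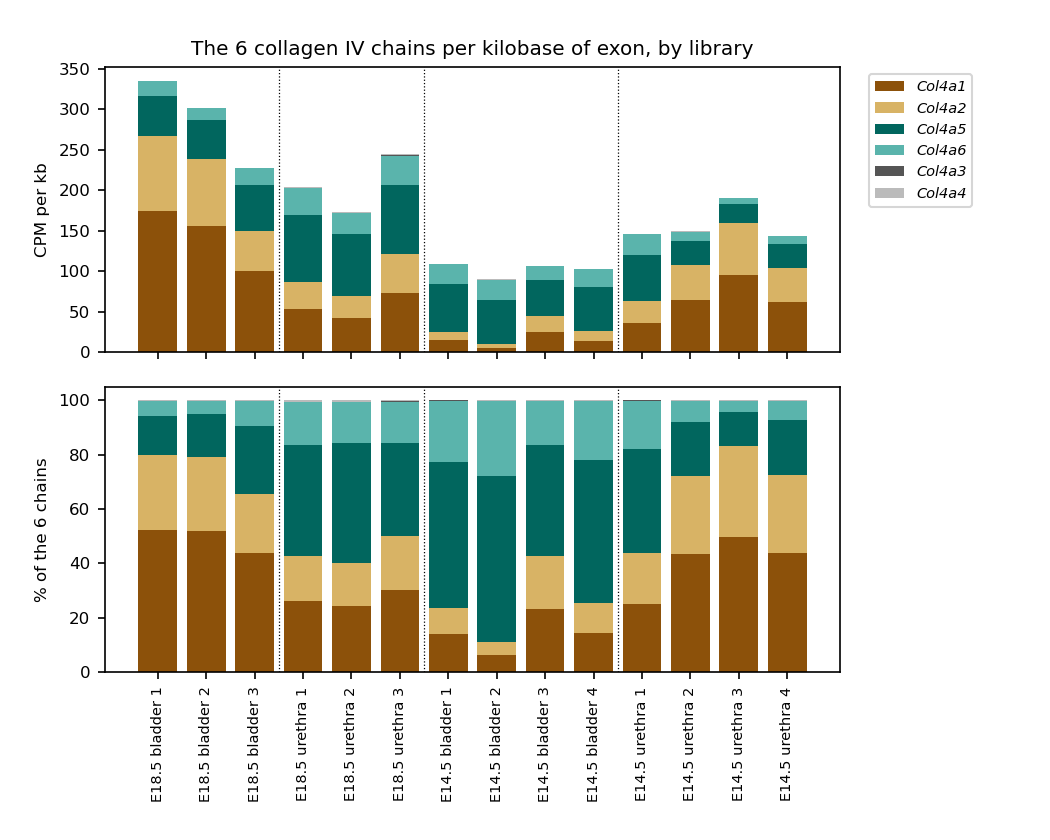
The 6 collagen IV chains in each library, stacked as CPM per kilobase of exon and as a share of their sum. Col4a5 with Col4a6 made up 20.1 to 34.3% in E18.5 bladder and 49.5 to 59.1% in E18.5 urethra, and 57.4 to 88.9% in E14.5 bladder and 16.5 to 56.1% in E14.5 urethra.

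Col7a1 (chr9:108953586-108984875, GRCm38), the anchoring fibril chain, was lower in bladder at both stages. It had 56.1, 41.5 and 79.0 CPM in E18.5 bladder and 314, 333 and 369.9 CPM in E18.5 urethra, and 5.89, 1.30, 3.34 and 1.65 CPM in E14.5 bladder and 153, 50.9, 19.6 and 68.9 CPM in E14.5 urethra. No bladder library reached a urethra library of its stage, and no E14.5 library reached an E18.5 library of its tissue. The tissue difference was -2.54 ± 0.23 (adjusted p = 1.12e-04) at E18.5 and -4.62 ± 0.74 (adjusted p = 0.0019) at E14.5; the E14.5 value was -5.21 without bladder replicate 1 and -3.97 without urethra replicate 1. Col7a1 rose with stage by 4.30 ± 0.63 (adjusted p = 1.89e-04) in bladder and by 2.2 ± 0.56 (adjusted p = 0.0096) in urethra, the urethral value being 2.85 without E14.5 urethra replicate 1. The change of the tissue difference with stage, 2.10 ± 0.82 (adjusted p = 0.0817), was called without E14.5 bladder replicate 1, at 0.0366, and without E14.5 urethra replicate 3, at 0.0296. Direction between tissues and between stages was the same with libraries scaled on the pan-epithelial genes or on the mesenchymal markers. Per 100 CPM of the 7 pan-epithelial genes, Col7a1 had 1.97 ± 0.497 CPM in E18.5 bladder, 8.76 ± 1.43 CPM in E18.5 urethra, 0.0717 ± 0.0516 CPM in E14.5 bladder and 2.85 ± 1.37 CPM in E14.5 urethra (SD, n = 3, 3, 4 and 4).

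Col18a1, a basement membrane chain whose end fragment is endostatin, was lowest in E18.5 urethra. It had 513, 624 and 628 CPM in E18.5 bladder and 224, 162 and 306 CPM in E18.5 urethra, and 502, 426, 328 and 579 CPM in E14.5 bladder and 355, 417, 482 and 412 CPM in E14.5 urethra. Tissues did not overlap at E18.5 and did so at E14.5, with log2 differences of 1.33 ± 0.22 (adjusted p = 0.00208) and 0.09 ± 0.16 (adjusted p = 0.673). In urethra it fell with stage, at -0.87 ± 0.21 (adjusted p = 0.00792), a call lost at 0.0502 without E18.5 urethra replicate 2, and in bladder the difference was 0.40 ± 0.21 (adjusted p = 0.144). The tissue difference at E18.5 turned to -0.17 (adjusted p = 0.622) with libraries scaled on the mesenchymal markers, above the median gene at -1.54. Col15a1, a related chain of the basement membranes of vessels and muscle, had 458, 404 and 223 CPM in E18.5 bladder and 26.8, 47.0 and 39.7 CPM in E18.5 urethra, against 14.8, 3.34, 18.2 and 9.04 CPM in E14.5 bladder and 6.37, 20.5, 41.2 and 19.4 CPM in E14.5 urethra. E18.5 bladder stood above every other library. The tissue difference at E18.5 was 3.24 ± 0.30 (adjusted p = 1.31e-04), the stage difference in bladder 5.04 ± 0.62 (adjusted p = 6.29e-05), and the change of the tissue difference 4.26 ± 0.82 (adjusted p = 0.0041), beside the endothelial and smooth muscle sums given above.

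Among the remaining chains, Col8a1, a short chain of vessel walls and the cornea, reversed its tissue order as Col4a1 did. It had 27.9, 29.4 and 28.3 CPM in E18.5 bladder and 19.9, 20.2 and 19.8 CPM in E18.5 urethra, and 1.69, 2.04, 8.31 and 1.20 CPM in E14.5 bladder and 30.4, 22.3, 18.8 and 24.1 CPM in E14.5 urethra. The difference was 0.49 ± 0.11 (adjusted p = 0.00983) at E18.5 and -2.89 ± 0.61 (adjusted p = 0.0062) at E14.5, without overlap at either stage; without E14.5 bladder replicate 3 the E14.5 value was -3.90. Col8a2 was higher in E18.5 bladder at 1.37 ± 0.40 (adjusted p = 0.028), which was not called without bladder replicate 1 or 2 or urethra replicate 1 or 2. Col23a1, a transmembrane collagen, had 9.91, 2.74, 12.9 and 19.9 CPM in E14.5 bladder and 17.9, 106, 109 and 112 CPM in E14.5 urethra, where replicate 1 overlapped bladder. That difference was -2.98 ± 0.70 (adjusted p = 0.00949), and the fall with stage in urethra, -1.67 ± 0.60 (adjusted p = 0.0471), was lost without any 1 of the urethra libraries other than E14.5 replicate 1. Col25a1, also transmembrane, was higher in E18.5 bladder, at 1.68 ± 0.31 (adjusted p = 0.00335), and fell with stage in urethra, at -2.49 ± 0.65 (adjusted p = 0.011), with 7.87, 8.12 and 8.75 CPM in E18.5 urethra against 12, 45.0, 81.4 and 45.0 CPM in E14.5 urethra. Col26a1, an extracellular protein with short collagen stretches, was lower in E14.5 bladder at -2.15 ± 0.59 (adjusted p = 0.0187), which was not called without bladder replicate 4, and Col13a1 and Col28a1 were not called in any comparison of all libraries. Col28a1 had 0, 0.119 and 2.42 CPM in E18.5 urethra, and its tissue difference at E18.5, -0.03 ± 1.15 (adjusted p = 0.987), was 3.58 without urethra replicate 3.

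Genes that make, trim and bind collagen were counted from lists. Beside the tissue counts that follow, 19.3% of all genes were called higher and 18.6% lower in bladder at E18.5. At E14.5 these shares were 23.1% higher and 20.9% lower. Of 19 genes that act in the making of chains within the cell, 12 were higher and 1 lower in bladder at E18.5. Creb3l1, a transcription factor that activates collagen genes, led the higher ones at 2.13 ± 0.24 (adjusted p = 2.85e-04). Crtap followed at 1.31 ± 0.16 (adjusted p = 4.69e-04) and the chaperone Serpinh1 at 1.24 ± 0.16 (adjusted p = 6.14e-04). P4ha3, a prolyl 4-hydroxylase subunit, was the lower one at -1.13 ± 0.38 (adjusted p = 0.0456). At E14.5, 2 were higher and 7 lower, and Serpinh1 stood at -0.95 ± 0.24 (adjusted p = 0.0138). Of 13 genes that act in the trimming and cross-linking of collagen outside the cell, 9 were higher and 0 lower in bladder at E18.5. None was lower at an unadjusted p under 0.05 either. The higher ones were led by the procollagen protease Adamts2 at 2.62 ± 0.23 (adjusted p = 9.42e-05) and by Pcolce at 2.47 ± 0.22 (adjusted p = 9.44e-05). The lysyl oxidase Loxl2 came next at 2.25 ± 0.22 (adjusted p = 1.54e-04). At E14.5, 4 of 12 tested were lower by edgeR and 0 higher, 0 also at an unadjusted p under 0.05. Of 14 matrix proteins that bind fibrils, 11 were higher and 1 lower in bladder at E18.5, with Thbs2 at 2.97 ± 0.20 (adjusted p = 3.24e-05), Sparc at 2.26 ± 0.16 (adjusted p = 3.64e-05) and, as the lower one, Matn2 at -1.9 ± 0.32 (adjusted p = 0.00225). At E14.5, 1 was higher and 1 lower. Dcn and Lum of this list, both higher in bladder at E18.5, are also among the 15 mesenchymal markers. With stage, 17 of 19, 11 of 13 and 12 of 14 genes of these lists rose in bladder, beside 19.9% of all genes, and 1, 0 and 0 fell. In urethra 5 of 19, 1 of 13 and 7 of 14 rose, beside 17.3% of all genes, and 0, 2 and 0 fell. The interaction test itself called 14 of 19, 11 of 13 and 8 of 14 more positive in bladder, beside 12.2% of all genes.

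Of 9 receptors of collagen tested at E18.5, 5 were higher and 1 lower in bladder, beside 19.3% of all genes called higher and 18.6% lower. Among the higher ones were the integrin subunits Itga1 at 2.65 ± 0.30 (adjusted p = 3.31e-04) and Itga11 at 2.47 ± 0.40 (adjusted p = 0.00176). Another was Ddr2, a receptor tyrosine kinase of mesenchymal cells, at 1.71 ± 0.22 (adjusted p = 6.49e-04). The 1 lower receptor was Ddr1, its epithelial relative, at -1.37 ± 0.13 (adjusted p = 1.24e-04). At E14.5, 4 of 8 tested were lower by edgeR and 0 higher, 0 also at an unadjusted p under 0.05. Beside these, 20.9% of all genes were called lower and 23.1% higher. Ddr1 was again among the lower receptors at -0.51 ± 0.16 (adjusted p = 0.0279). Of 19 other basement membrane genes, 8 were higher and 4 lower in bladder at E18.5, beside 19.3% of all genes called higher and 18.6% lower. The higher ones were led by Tinagl1, a matrix protein of epithelial and vascular basement membranes, at 1.07 ± 0.11 (adjusted p = 2.47e-04), and the nidogens Nid1 and Nid2, which link laminin to collagen IV, at 1.81 ± 0.23 (adjusted p = 5.57e-04) and 1.82 ± 0.26 (adjusted p = 0.00103). The lower ones were led by the epithelial laminin chains Lama5 at -1.24 ± 0.17 (adjusted p = 7.28e-04), Lama3 at -1.17 ± 0.20 (adjusted p = 0.00217) and Lamb3 at -1.03 ± 0.18 (adjusted p = 0.00287). At E14.5, 2 of these 19 were higher and 8 lower, beside 23.1% of all genes called higher and 20.9% lower. The lower ones were then led by Hspg2, the perlecan core protein, at -1.69 ± 0.25 (adjusted p = 0.00136).

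The test of whether the tissue difference changed with stage gave higher values at E18.5 for 7 of 11 fibrillar chains, 5 of 6 collagen VI chains, 4 of 9 basement membrane chains and 2 of 9 fibril-associated chains, beside 12.2% of all genes. It was 2.60 ± 0.66 (adjusted p = 0.015) for Col1a1, 2.96 ± 0.59 (adjusted p = 0.00443) for Col3a1, 2.82 ± 0.59 (adjusted p = 0.00581) for Col6a1 and 1.26 ± 0.29 (adjusted p = 0.00973) for Col18a1. Lower values were called for Col4a5, Col4a6 and Col9a3, 3 of 42 chains beside 10.7% of all genes. By the pan-epithelial scaling, 32 chains had higher and 1 had lower values, and with the mesenchymal scaling 0 had higher and 18 lower. With libraries scaled on the mesenchymal markers, where the median gene stood at -3.16, Col1a1, Col3a1 and Col6a1 turned to -0.41 (adjusted p = 0.582), -0.06 (adjusted p = 0.94) and -0.12 (adjusted p = 0.872), and Col18a1 to -1.97 (adjusted p = 0.0207). With libraries scaled on the pan-epithelial genes, where the median gene stood at 1.295, Col1a1 and Col3a1 stood at 4.03 (adjusted p = 0.00167) and 4.37 (adjusted p = 7.60e-04), and Col4a5 at -0.06 (adjusted p = 0.807). The epithelial genes themselves changed in this test, 5 of 7 to lower values and none to higher, with Epcam at -1.23 ± 0.21 (adjusted p = 0.00222), and 14 of 15 mesenchymal markers changed to higher values.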

How the data were processed

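Poly(A) RNA was sequenced from epithelium of bladder and urethra as 100 bp read pairs from a directional kit, per the labels' protocols. Reads were aligned to GRCm38 with HISAT2 2.2.1 and handled with SAMtools 1.9, per the submitters' processing notes; no source used here gives the counter, its strand setting or the annotation. The values the authors deposited are raw counts per gene in 1 table per stage, with exon lengths that gave levels per kilobase. The order of chains per kilobase, and ratios and shares between chains, depend on those annotated lengths. The 43 chains and all gene lists were chosen with earlier results of these data known. Genes were kept by filterByExpr, libraries scaled by TMM, and tissues compared by edgeR 4.0.16's quasi-likelihood F test (R 4.3.3) on the libraries of a stage; stages and the interaction were fitted on all 14 libraries. Adjusted p-values (Benjamini-Hochberg) cover all genes tested. A standard error is the log2 fold change over the root of F. CPM uses TMM-scaled library sizes. Named genes were the members, and up to 3 genes per list and direction by p. The fits were tested on simulated data in which 200 genes were changed and the noise was independent between genes. They recovered 24% (interaction) to 60% (tissues at E18.5) of 2-fold changes and 53% (interaction) to 86% (tissues at E18.5) of 4-fold changes. Of the calls, 2.19% (tissues at E14.5) to 6.41% (tissues at E18.5) were false. A chain that was not called may thus still differ. Far more genes were called in the real data than were changed in the simulation, so its shares may not carry over. Alternatives were DESeq2 1.42.0 and its size factors, no filter on low counts, scaling on pan-epithelial or mesenchymal genes, a mesenchyme score as covariate, a replicate block, 1 fit of all libraries, and leaving out each library. Depth was 21.1 to 36.81 M counts. Chi-square per gene between replicates was 10.33 or more, so replicates differed beyond sampling noise. Litters are the replicates.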

Additional observations from a re-analysis of the deposited data

Results flagged for a closer look

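Among 46 sets of 4 E14.5 libraries checked, 1 library lay far from the other 3 in 2 sets, and chance alone would flag about 1 in 20. Col23a1 was at 17.89 CPM in E14.5 urethra replicate 1, with 17.9, 106, 109 and 112 CPM over the 4 replicates. Col25a1 was at 36.94 CPM in E14.5 bladder replicate 3, with 10.2, 8.21, 36.9 and 11.2 CPM over the 4 replicates.

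The difference between tissues itself differed between stages for the chains below, by the interaction test of edgeR. Its log2 value was 2.60 ± 0.66 (adjusted p = 0.015) for Col1a1, 2.93 ± 0.67 (adjusted p = 0.00887) for Col1a2, 2.96 ± 0.59 (adjusted p = 0.00443) for Col3a1 and 2.75 ± 0.50 (adjusted p = 0.00293) for Col5a1. For collagen VI it was 2.82 ± 0.59 (adjusted p = 0.00581) for Col6a1, 3.43 ± 0.67 (adjusted p = 0.00423) for Col6a3 and 3.85 ± 1.28 (adjusted p = 0.0454) for Col6a5. For basement membrane chains it was 3.5 ± 0.61 (adjusted p = 0.00248) for Col4a1, 3.00 ± 0.62 (adjusted p = 0.00553) for Col4a2, 4.26 ± 0.82 (adjusted p = 0.0041) for Col15a1 and 1.26 ± 0.29 (adjusted p = 0.00973) for Col18a1. It was negative for Col4a5 at -1.24 ± 0.32 (adjusted p = 0.0169), Col4a6 at -1.44 ± 0.45 (adjusted p = 0.0348) and Col9a3 at -2.62 ± 0.36 (adjusted p = 7.69e-04). The values for Col6a5 and Col4a6 missed the threshold without any 1 of 11 and of 10 libraries.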

How the results depend on the processing

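Direction and call held for most results over all settings together, a count that includes leaving out each library. They held less under the mesenchymal scaling and the mesenchyme covariate. Under that scaling, 24 of 38 chains turned in sign between tissues at E14.5. With the covariate, 31 chains lost their call between tissues at E18.5. Given here are the counts that moved by over 1.5 times and the log2 differences of named chains that turned in sign, with the number of all chains that lost or gained a call; the cause was not tested. With DESeq2's test and with its size factors the bladder stage difference of Col4a5 was 0.001, which is positive. With all 14 libraries in 1 fit, 4 chains were lower in bladder at E18.5 and 1 was higher at E14.5. Same-numbered libraries of the 2 tissues deviated together with r of 0.137, -0.146 and -0.19 at E18.5 and 0.149, 0.131, 0.391 and -0.105 at E14.5, so the numbers, which the labels do not tie to litters, were not taken to pair them, and not every library correlated best with its own number. With a replicate block, 2 chains, Col4a5 and Col4a6, were higher and 17 lower in bladder at E14.5; 8 gained a call there, Col5a1 among them, and Col9a2 lost it.

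With libraries scaled on the 7 pan-epithelial genes, the median of all genes was 0.36, -0.99, 0.54, -0.76 and 1.295 between tissues at E18.5 and at E14.5, between stages in bladder and in urethra, and in the interaction test. Values between tissues at E18.5 were 4 chains lower, 5143 genes higher and 1338 genes lower; 7 chains lost and 4 gained a call, and 4 turned in sign. Values between tissues at E14.5 were 32 chains lower, 540 genes higher and 11293 genes lower; 0 chains lost and 20 gained a call, and 4 turned in sign, with Col4a5 -0.251, Col4a6 -0.14 and Col18a1 -0.91 among those named. Values between stages in bladder were 6001 genes higher and 303 genes lower; 0 chains lost and 7 gained a call, and 3 turned in sign, with Col4a5 0.532 and Col4a6 0.282 among those named. Values between stages in urethra were 8 chains lower, 1055 genes higher and 8921 genes lower; 3 chains lost and 4 gained a call, and 10 turned in sign, with Col1a1 -0.193, Col1a2 -0.401, Col3a1 -0.425, Col6a3 -0.523 and Col12a1 -0.327 among those named. Values in the interaction test were 32 chains higher, 1 chain lower, 12497 genes higher and 290 genes lower; 2 chains lost and 11 gained a call, and 5 turned in sign.

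With libraries scaled on the 15 mesenchymal markers, the median of all genes was -1.54, 1.58, -2.72, 0.42 and -3.16 between tissues at E18.5 and at E14.5, between stages in bladder and in urethra, and in the interaction test. Values between tissues at E18.5 were 8 chains higher, 22 chains lower, 478 genes higher and 14399 genes lower; 10 chains lost and 9 gained a call, and 11 turned in sign, with Col12a1 -0.951, Col14a1 -1.162, Col4a1 -0.263, Col4a2 -0.587 and Col18a1 -0.166 among those named. Values between tissues at E14.5 were 5 chains higher, 4 chains lower, 10518 genes higher and 336 genes lower; 8 chains lost and 5 gained a call, and 24 turned in sign, with Col1a1 1.278, Col1a2 1.096, Col3a1 0.747, Col5a1 0.474, Col6a1 0.571, Col6a3 0.157, Col12a1 0.367 and Col14a1 0.717 among those named. Values between stages in bladder were 8 chains higher, 19 chains lower, 453 genes higher and 15579 genes lower; 14 chains lost and 14 gained a call, and 16 turned in sign, with Col12a1 -0.132 and Col18a1 -2.352 among those named. Values between stages in urethra were 1 chain lower, 1066 genes higher and 111 genes lower; 5 chains lost and 3 gained a call, and 9 turned in sign, with Col5a1 0.481, Col4a1 0.396 and Col4a2 0.295 among those named. Values in the interaction test were 0 chains higher, 18 chains lower, 84 genes higher and 15430 genes lower; 20 chains lost and 14 gained a call, and 24 turned in sign, with Col1a1 -0.414, Col1a2 -0.105, Col3a1 -0.06, Col5a1 -0.34, Col6a1 -0.122, Col12a1 -1.318, Col14a1 -1.879, Col4a2 -0.04, Col7a1 -0.3 and Col18a1 -1.969 among those named.

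With a mesenchyme score as a covariate the values between tissues at E18.5 were 0 chains higher, 0 chains lower, 0 genes higher and 2 genes lower. There 31 chains lost and 0 gained a call, and 13 turned in sign. Among those named were Col12a1 -1.111, Col14a1 -1.043, Col4a1 -0.131, Col4a2 -0.661 and Col6a5 -2.904. Sums of the mesenchymal markers did not overlap between tissues at E18.5, so that fit could hardly tell the score from tissue. Values between tissues at E14.5 were 2 chains higher, 2 chains lower, 979 genes higher and 1019 genes lower; 10 chains lost and 2 gained a call, and 21 turned in sign, with Col1a1 1.363, Col1a2 1.227, Col3a1 0.685, Col5a1 0.145, Col6a1 0.434, Col6a3 0.124, Col12a1 0.596, Col14a1 0.404 and Col4a6 -0.089 among those named. Values between stages in bladder were 5 chains higher, 4 chains lower, 671 genes higher and 642 genes lower; 22 chains lost and 4 gained a call, and 13 turned in sign, with Col12a1 -0.483, Col4a5 0.99 and Col4a6 1.118 among those named. Values between stages in urethra were 20 chains higher; 1 chain lost and 10 gained a call, and 9 turned in sign, with Col5a1 0.381, Col4a1 0.358 and Col4a2 0.253 among those named. Values in the interaction test were 0 chains higher, 0 chains lower, 15 genes higher and 31 genes lower; 24 chains lost and 0 gained a call, and 19 turned in sign, with Col1a1 -0.458, Col1a2 -0.204, Col12a1 -1.735, Col14a1 -1.217, Col4a6 0.13, Col15a1 -0.255 and Col6a5 -0.011 among those named.

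Leaving out each library in turn gave these ranges. Col18a1 between tissues at E14.5 ran from -0.019 to 0.218. Col1a1 between tissues at E14.5 ran from -0.632 to 0.347. Col1a2 between tissues at E14.5 ran from -0.794 to 0.154. Col4a1 between stages in urethra ran from -0.412 to 0.063. Col4a5 between stages in bladder ran from -0.107 to 0.037. Col5a1 between stages in urethra ran from -0.246 to 0.169. Chain ratio Col4a3 to Col4a4 E14.5 bladder minus urethra ran from -1.505 to 0.076. Chain ratio Col5a1 to Col5a2 E14.5 bladder minus urethra ran from 0 to 0.117. Chain ratio Col6a1 to Col6a2 E18.5 bladder minus urethra ran from -0.031 to 0.022. Collagen chains called higher between tissues at E14.5 ran from 0 to 2. Collagen chains called lower between tissues at E14.5 ran from 10 to 20. Collagen chains called lower between tissues at E18.5 ran from 7 to 11. Collagen chains called lower between stages in urethra ran from 2 to 4. Genes called lower in the interaction test ran from 1122 to 3006. Genes called lower between stages in urethra ran from 1693 to 3290. Depth limits Col10a1, Col19a1, Col22a1 and Col28a1, which had few counts.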
